A study of Mus musculus with 30 samples.

Results

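The expression of 9 genes of the Hedgehog pathway was followed in ganglion cell and other cell fractions of newborn mouse retina: the ligand gene Shh, the receptor and coreceptor genes Ptch1 and Boc, the signal transducer gene Smo, the inhibitor genes Hhip and Sufu, and the transcription factor genes Gli1, Gli2 and Gli3. They were chosen by name and not by level, though with earlier results of these data known. All 9 members are among the 38720 gene symbols of both deposited tables. In this pathway a secreted Hedgehog ligand binds Ptch1, which otherwise holds Smo inactive, and active Smo turns the Gli proteins from repressors into activators of transcription. Gli1, Ptch1 and Hhip are themselves targets of the signal, so their transcripts are widely used as a readout of it. In the developing retina, ganglion cells are a known source of Shh, and the dividing progenitor cells beside them are known to receive it.

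The study was designed to remove floxed Ezh2, which encodes the histone H3 lysine 27 methyltransferase of Polycomb repressive complex 2, alone or with 1 floxed copy of the gene of the H3 lysine 9 methyltransferase G9a. Cre recombinase was under Math5 (Atoh7) control, which is active in the lineage of the retinal ganglion cells (RGCs). Retinas were taken on postnatal day 0 and digested with papain, and cells carrying CD90, the product of Thy1, were drawn out on magnetic beads as the RGC fraction. The cells left behind were the non-RGC fraction.

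The tables hold 9 libraries in 3 groups of 3, which are RGCs of C57BL/6 wild type (WT) mice, RGCs of mutant mice and non-RGC cells of mutant mice. All mutant libraries carry Math5Cre and homozygous floxed Ezh2 (Ezh2f/f), and the labels list a sKO genotype, Math5Cre; Ezh2f/f, and a dKO genotype, Math5Cre; Ezh2f/fG9af/+. The tables call the group only "mut", so which of these it is was not settled, and "mutant" here means the libraries so named. Strain and genotype cannot be told apart, since the labels name a strain for the WT mice only. Non-RGC cells of WT mice and the H3K27me3 chromatin libraries of the series were not analysed here. The tables give no sample numbers. In each group the library with the largest size factor is called 1 and that with the smallest 3, and equal numbers do not pair libraries. The labels do not state that these came from separate animals, and p-values therefore reflect the spread among the libraries, which may be technical.

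The libraries held 10551825 to 12259494 assigned reads. Ezh2 was at 1154 to 1576 normalised counts in WT RGCs and 1812 to 1962 in the libraries labelled mutant RGC, a log2 difference of 0.58 (SE 0.13, limma adjusted p = 0.0292), and so not lower. The G9a gene Ehmt2 was at 3603 to 3857 in WT and 2364 to 2962 in mutant RGCs, a log2 difference of -0.43 (SE 0.11, limma adjusted p = 0.0332), and the genotype was not inferred from it. These are counts over the whole gene, in which transcripts without the floxed exons still count, so they check neither the deletion nor the label. A normalised count is a read count divided by the size factor of its library. Unless stated otherwise, size factors were computed over all 9 libraries so that the 3 groups share a scale. Such counts are not divided by transcript length, so levels are compared between libraries and not between genes.

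The summed normalised count of 20 ganglion cell markers was 43582 to 52083 in WT RGCs, 20063 to 33716 in mutant RGCs and 5309 to 11964 in mutant non-RGC cells. The sum of 16 markers of progenitors and Mueller glia ran the other way, with 19006 to 27620, 29806 to 30072 and 34032 to 34664 in the same order, and that of 18 proliferation genes was 14845 to 25832, 33341 to 34352 and 39978 to 41108. None of these markers was at 0 in any library. Ganglion cell markers were thus lower, and progenitor and proliferation markers higher, in mutant than in WT RGC libraries. In the comparison of genotypes, 9 of 20 ganglion cell markers fell, while 6 of the 16 markers of progenitors and Mueller glia rose, as did 17 of 18 proliferation genes (limma adjusted p under 0.05). Photoreceptor markers, 10 in all, summed to 7942 to 10949 in WT and 11804 to 17574 in mutant RGCs, where 5 rose, and 10 amacrine cell markers to 9797 to 11037 and 12891 to 15437, where 6 rose and 1 fell. Of all 15276 genes tested between genotypes, 13.7% rose and 12.3% fell at the same threshold. Even in WT RGC libraries the proliferation marker Mki67 stood at 2372 to 4339. Microglia markers, 10 in all, summed to 2800 to 4075 in WT RGCs, 1744 to 6869 in mutant RGCs and 44.2 to 64.9 in mutant non-RGC cells, where Aif1, Tyrobp and P2ry12 were each at 0 in at least 1 library. In bulk samples, fewer cells of a type and less RNA per cell cannot be told apart. What part the cell mix has in the differences of the Hedgehog genes was not tested.

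Promoter sequences from RefSeq (GRCm38.p6, the assembly also called mm10) were matched by symbol for 6 of the 9 members. Those of Gli2, Gli3 and Smo are shown because these genes had the highest rises of the members that rose together in the mutant RGC libraries. Each line gives the 250 bases before the annotated start, on the strand of the gene, with CpG dinucleotides, the sites of DNA methylation, in capitals.
Gli2: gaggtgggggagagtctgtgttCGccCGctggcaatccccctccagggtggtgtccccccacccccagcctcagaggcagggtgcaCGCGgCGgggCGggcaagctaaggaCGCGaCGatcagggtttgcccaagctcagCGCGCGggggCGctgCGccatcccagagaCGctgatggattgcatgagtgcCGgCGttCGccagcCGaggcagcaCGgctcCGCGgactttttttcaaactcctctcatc
Gli3: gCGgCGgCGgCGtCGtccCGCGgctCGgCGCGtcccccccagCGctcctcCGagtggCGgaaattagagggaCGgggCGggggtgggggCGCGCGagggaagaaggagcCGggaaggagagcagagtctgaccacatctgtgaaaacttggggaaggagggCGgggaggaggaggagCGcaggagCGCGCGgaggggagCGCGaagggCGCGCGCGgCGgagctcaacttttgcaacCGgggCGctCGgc
Smo: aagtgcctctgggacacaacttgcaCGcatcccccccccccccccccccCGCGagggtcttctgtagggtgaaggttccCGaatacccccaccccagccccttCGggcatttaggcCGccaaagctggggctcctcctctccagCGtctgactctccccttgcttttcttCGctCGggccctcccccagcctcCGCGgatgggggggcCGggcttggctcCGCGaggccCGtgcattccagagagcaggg
The Gli2 stretch lies at chr1:119053620-119053869 on the minus strand, that of Gli3 at chr13:15463473-15463722 on the plus strand and that of Smo at chr6:29735247-29735496 on the plus strand. The windows of Gli2, Ptch1 and Hhip belong to transcripts that start inside the full span of the gene given below. The printed stretches hold 22, 34 and 15 CpG. Over the full 300 bases that RefSeq windows cover, from 250 before to 50 after the start, there were 28 CpG for Gli2, 39 for Gli3, 17 for Smo, 30 for Hhip, 47 for Ptch1 and 12 for Sufu, against a median of 7 over all 32851 windows. All 6 members thus lay above that median. The Gli binding motif TGGGTGGTC was in none of the 6 windows on either strand, not even with 1 mismatch, while 0.253% of all windows hold it exactly and 6.74% with at most 1 mismatch. No match says only that these letters are not in this window.

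Shh (chromosome 5, 28456840 to 28467101, GRCm38), the secreted ligand, had its highest level in WT RGCs and its lowest in non-RGC cells. WT RGC libraries 1, 2 and 3 held 422, 388 and 261 normalised counts, mutant RGC libraries 67.5, 205 and 200, and mutant non-RGC libraries 26.0, 38.7 and 5.14. The 3 groups did not overlap, with every WT library above every mutant RGC library and every mutant RGC library above every non-RGC library, and library 1 of the mutant RGCs and library 3 of the non-RGC cells were the low ones of their groups. The means were 357 ± 84.9, 157 ± 77.9 and 23.3 ± 17.0 (SD, n = 3 each).

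**Figure D1:**
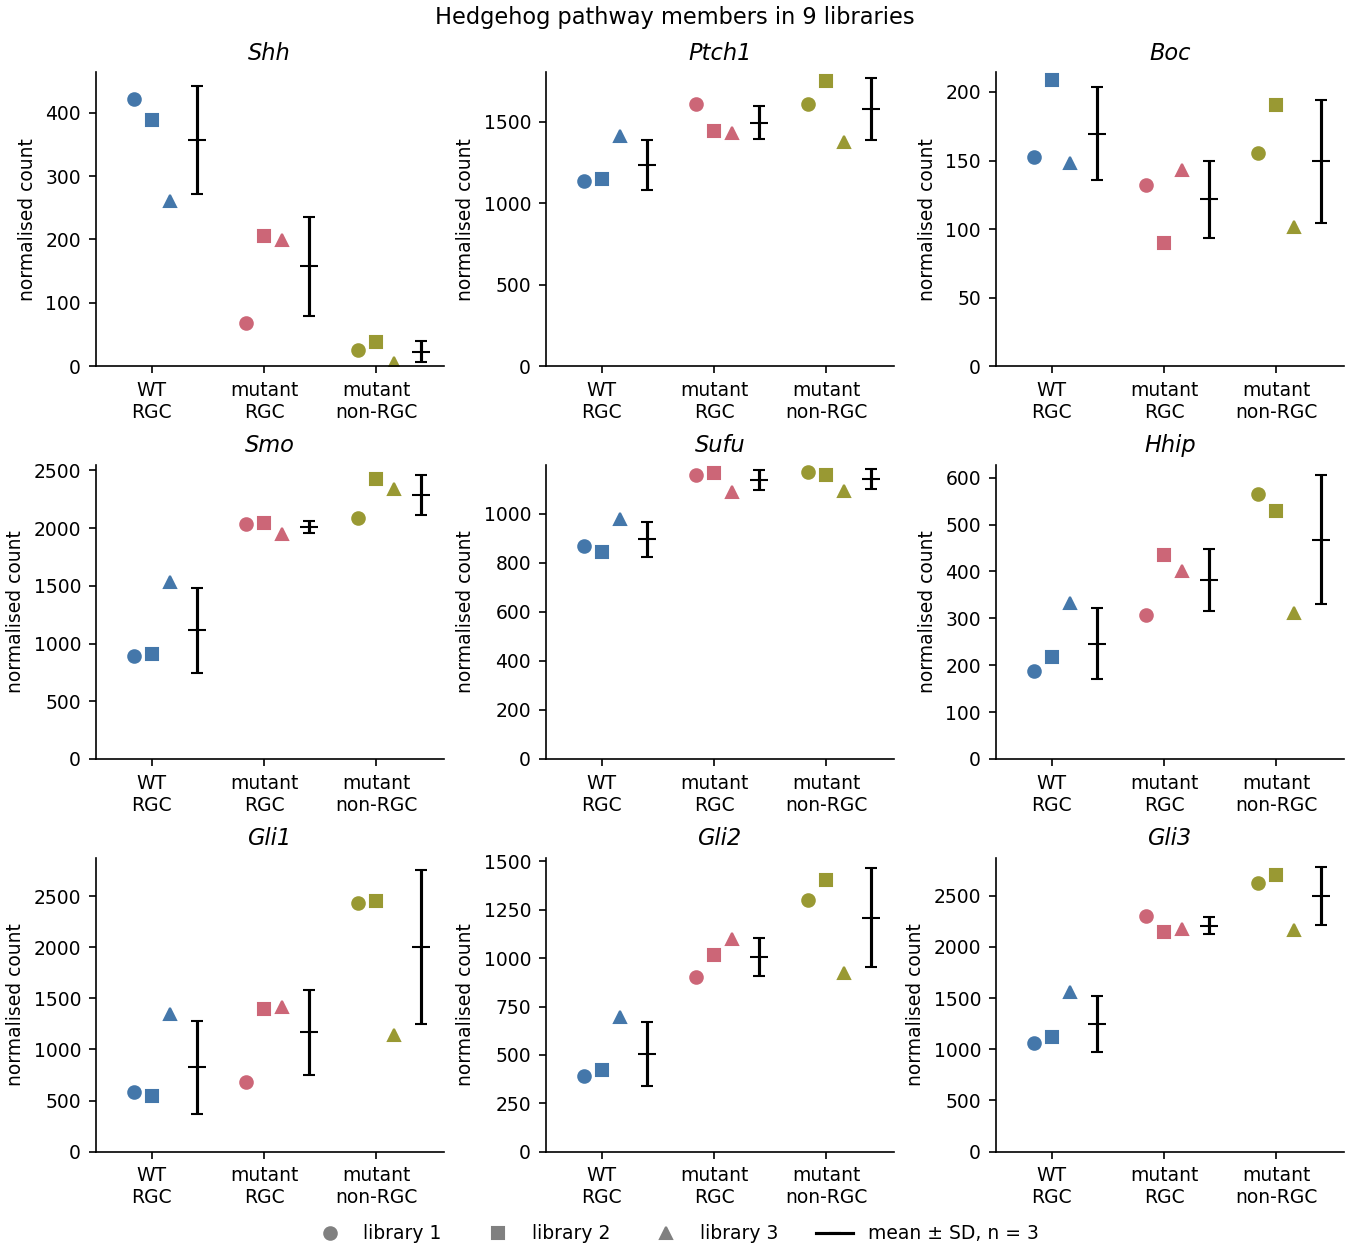
Normalised counts (vertical axes, from 0) of the 9 Hedgehog pathway genes in WT RGC, mutant RGC and mutant non-RGC libraries. Symbols are single libraries and the black marks are the mean ± SD of 3. Shh is lower from left to right without overlap between the groups, the WT libraries of Smo, Sufu, Gli2 and Gli3 all lie below the mutant libraries, and those of Gli1 and Hhip overlap with the mutant groups.

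Between the mutant fractions, Shh fell by 2.92 on the log2 scale from RGC to non-RGC libraries (SE 0.75, limma adjusted p = 0.0379), which is 0.132 of the RGC level. With 1 library left out, the difference ran from -3.47 (without non-RGC library 2) and -3.46 (without mutant RGC library 1) to -2.11 (without non-RGC library 3). Log2 differences are of log2(normalised count + 1) and come from libraries scaled within each comparison. The authors' deposited table calls Shh as well (adjusted p = 0.0176). It did not pass when mutant RGC library 2 or 3 was left out (limma adjusted p = 0.129 and 0.122), without non-RGC library 1 (0.0913), with voom weights (0.0712) and without a variance trend (0.0810). Between genotypes, the Shh difference of mutant minus WT RGCs was -1.27 (SE 0.46), which did not pass limma's test (adjusted p = 0.0772), whereas the authors' deposited table gives a log2 fold change of -1.14 with an adjusted p of 0.0264. Without mutant RGC library 1, the low one, the difference was -0.73 (limma adjusted p = 0.0676). The ganglion cell marker sum moved with Shh in both comparisons. Only the non-coding gene 9530036O11Rik overlaps Shh, and its highest count in any library was 27.5. The genes whose log2 levels over the 9 libraries were most like those of Shh, among 12687 genes, were the potassium channel gene Kcnd2 (Pearson r = 0.998), Fblim1 (0.998), which encodes a filamin-binding adhesion protein, and Kitl (0.998), which encodes the ligand of the receptor Kit. These coefficients describe 9 libraries in 3 groups that differ in cell mix, and are no test.

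Ptch1 (chromosome 13, 63508328 to 63573460), the Hedgehog receptor and a target of the signal, had its lowest mean in WT RGCs. It stood at 1139, 1149 and 1410 in WT RGCs, at 1612, 1443 and 1432 in mutant RGCs and at 1611, 1752 and 1377 in mutant non-RGC cells. The highest WT library was just under the lowest mutant RGC library, and the mutant fractions overlapped. The difference between genotypes was 0.32 (SE 0.10, limma adjusted p = 0.0571) and that between fractions 0.07 (SE 0.10, limma adjusted p = 0.657), so neither passed. Without WT library 3, the highest of the WT libraries, the genotype difference was 0.42 and passed (limma adjusted p = 0.0058). In that fit the calls over all genes also rose, from 3971 to 6478.

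Boc (chromosome 16, 44485045 to 44558870) encodes a coreceptor that binds the ligand together with Ptch1. It stood at 152, 208 and 148 in WT RGCs, 132, 89.6 and 143 in mutant RGCs and 156, 191 and 102 in mutant non-RGC cells. WT libraries lay above mutant RGC libraries by a narrow margin, and the mutant fractions overlapped. Neither the difference of -0.45 between genotypes (SE 0.23, limma adjusted p = 0.168) nor that of 0.28 between fractions (SE 0.28, limma adjusted p = 0.545) passed. Boc and Shh were the members lower in mutant than in WT RGC libraries.

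Smo (chromosome 6, 29735497 to 29761366), the membrane protein that Ptch1 restrains, rose in the mutant RGC libraries. It stood at 896, 909 and 1535 in WT RGCs, 2038, 2043 and 1951 in mutant RGCs and 2088, 2426 and 2343 in mutant non-RGC cells. WT library 3 was the highest of WT yet below every mutant library, and no groups overlapped. The rise of mutant over WT RGCs was 1.91-fold (log2 0.93, SE 0.21, limma adjusted p = 0.0293). The further difference of 0.18 between the mutant fractions (SE 0.07) did not pass (limma adjusted p = 0.118), but passed with scaling by the total count (0.25, limma adjusted p = 0.0437).

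Hhip (chromosome 8, 79965850 to 80058060) encodes a membrane protein that binds Hedgehog ligands and keeps them from the receptor. WT RGC libraries held 189, 217 and 333 normalised counts, mutant RGC libraries 308, 435 and 402, and mutant non-RGC libraries 565, 529 and 311. The groups overlapped through the high WT library 3, the low mutant RGC library 1 and the low non-RGC library 3. Neither the difference between genotypes (0.69, SE 0.25, limma adjusted p = 0.0752) nor that between fractions (0.26, SE 0.25, limma adjusted p = 0.523) passed. Without WT library 3 the genotype difference was 0.93 and passed (limma adjusted p = 0.0153), in the fit where calls over all genes rose from 3971 to 6478.

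Sufu (chromosome 19, 46396896 to 46488804), which encodes the cytoplasmic protein that holds Gli proteins inactive, varied little within groups. Its counts were 870, 842 and 977 in WT RGCs, 1159, 1166 and 1089 in mutant RGCs and 1171, 1156 and 1093 in mutant non-RGC cells. All WT libraries lay below all mutant libraries, and the mutant fractions overlapped throughout. The rise between genotypes was 1.30-fold (log2 0.38, SE 0.08, limma adjusted p = 0.0277), whereas the authors' deposited table has it above the threshold (adjusted p = 0.121). The difference between the fractions was 0.00 (SE 0.06, limma adjusted p = 0.989).

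The Gli genes encode the zinc finger transcription factors at the end of the pathway. Gli2 (chromosome 1, 118834061 to 119054405), the main activator, stood at 393, 422 and 694 in WT RGCs, 901, 1019 and 1097 in mutant RGCs and 1299.5, 1406 and 921 in mutant non-RGC cells. Every WT library lay below every mutant library, and the mutant fractions overlapped. Gli2 rose 2.11-fold in mutant RGCs (log2 1.08, SE 0.22, limma adjusted p = 0.0268), the highest fold among the 9 members. Its difference of 0.25 between the fractions (SE 0.17) did not pass (limma adjusted p = 0.360), though it passed without non-RGC library 3 (0.43, limma adjusted p = 0.0423).

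Gli3 (chromosome 13, 15463723 to 15730026), the main repressor in the absence of signal, had 1057, 1117 and 1563 normalised counts in WT RGCs, 2298, 2147 and 2173 in mutant RGCs and 2620, 2697 and 2168 in mutant non-RGC cells. WT library 3 was again the highest of the WT libraries but below every mutant library. Gli3 rose 1.84-fold in mutant RGCs (log2 0.88, SE 0.15, limma adjusted p = 0.0238), and the difference of 0.17 between fractions (SE 0.09) did not pass (limma adjusted p = 0.245). Without non-RGC library 3, Gli3 passed there too (0.27, limma adjusted p = 0.0240).

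Gli1 (chromosome 10, 127329882 to 127341579), an activator whose transcription depends on the signal, varied widely between libraries of a group. It stood at 584, 545 and 1349 in WT RGCs, 685, 1397 and 1420 in mutant RGCs and 2429.8, 2451 and 1137 in mutant non-RGC cells. In each group 1 library stood apart, high in WT and low in both mutant groups, and all groups overlapped. The means were 826 ± 453, 1167 ± 418 and 2006 ± 752 (SD, n = 3 each). Neither the difference between genotypes (0.59, SE 0.43, limma adjusted p = 0.332) nor that between fractions (0.77, SE 0.38, limma adjusted p = 0.219) passed. Its locus overlaps Arhgap9, whose highest count in any library was 63.8, and no source used here says whether the counting used strand. The genes most like Gli1 over the 9 libraries were the antisense RNA gene Six3os1 (Pearson r = 0.987), the RNA-binding protein gene Arid5a (0.979) and the centrosomal gene Cep72 (0.977), and among the members Hhip (0.945).

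Counted together, 4 of the 9 members rose in mutant RGC libraries and none fell, with Gli2, Gli3, Smo and Sufu the genes called by limma. Of all 15276 genes tested, 13.7% were called higher and 12.3% lower by the same adjusted p. At an unadjusted p under 0.05, 6 members were higher and 1, Shh, lower. The share of all genes at an unadjusted p under 0.05 was not computed, here or for the counts below. The libraries of the 2 genotypes did not overlap for 5 members higher in the mutant (Ptch1, Smo, Sufu, Gli2 and Gli3) and 2 lower (Shh and Boc), against 26.2% of all genes higher and 24.9% lower. The median log2 difference was 0.59 for the members and 0.00 for all genes. The authors' deposited table also calls 4 members, Gli2, Gli3 and Smo higher and Shh lower, against 11.9% of the genes it tests in either direction. That share is over 25338 genes, a larger set than the 15276 tested by limma, so the 2 sets of shares differ in base.

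**Figure D2:**
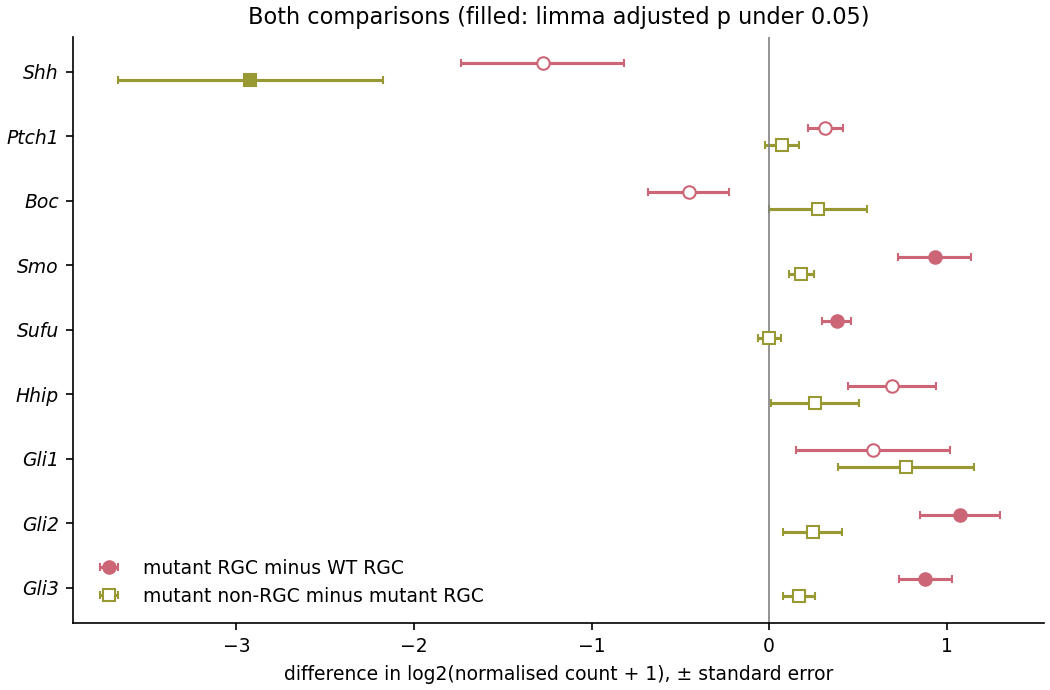
Differences of the 9 members in log2(normalised count + 1) for mutant RGC minus WT RGC (circles) and mutant non-RGC minus mutant RGC (squares), with bars of 1 standard error and filled symbols for a limma adjusted p under 0.05. Gli2, Gli3, Smo and Sufu are filled in the first comparison and Shh in the second, where the other members lie within 0.77 of 0.

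The genotype calls depended on single libraries. All 4 were lost when any of WT libraries 1 and 2 or mutant RGC libraries 2 and 3 was left out, with limma adjusted p values of 0.0911 to 0.117 without a WT library and 0.0670 to 0.0794 without a mutant one, while over all genes the calls fell from 3971 to between 3 and 9. In those fits the differences were 0.92 to 1.05 for Gli2, 0.77 to 0.89 for Gli3, 0.80 to 0.95 for Smo and 0.33 to 0.41 for Sufu. Without WT library 3, 6 members rose, adding Ptch1 and Hhip, and without mutant RGC library 1 only the Smo call was lost (limma adjusted p = 0.0546). Over all genes, 6478 were called without WT library 3, 3383 of them higher, and 2284 without mutant RGC library 1.

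Between the mutant fractions, 1 of 9 members fell in non-RGC cells, Shh, and none rose by limma's adjusted p. Of 15178 genes tested, 5.07% were called higher and 12% lower by that adjusted p. At an unadjusted p under 0.05, Smo was higher and Shh lower, with no share of all genes computed. The fractions did not overlap for 1 member higher (Smo) and 1 lower (Shh), against 17.1% and 20.6% of all genes. The authors' deposited table calls Shh alone, against 6.47% of its genes, again a larger set (25252). The median difference was 0.18 for the members and 0.01 for all genes. Ptch1, Sufu, Gli2 and Gli3, with differences of 0.00 to 0.25, had overlapping levels in the CD90-selected cells and in the cells left behind. So did Hhip (0.26), Boc (0.28) and Gli1 (0.77). Both comparisons use the same mutant RGC libraries and are therefore not independent of each other.

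Within the mutant groups, Gli1 and Hhip did not follow the summed progenitor markers. This pattern was noticed in the values and is given as a description, with no test. The libraries described here and below were picked after it was seen. The shares of genes given beside their ratios are therefore no measure of how rare the pattern is. In non-RGC library 3, which had the lowest Shh and the lowest ganglion cell marker sum of its group, Gli1 was at 0.468 of the nearer of the other 2 libraries and Hhip at 0.587. Of 12687 genes, 1.91% and 3.70% had a ratio as low or lower. Smo lay between the other libraries, Sufu was at 0.945 and Ptch1 at 0.855, and the progenitor sum was 34664 against 34086 and 34032. The 16 markers in that sum were split, with 7 lowest and 9 highest in that library and ratios of 0.867 to 1.65. Of all genes, 36.1% were lowest and 47.5% highest there. Gli2 was at 0.709, a ratio that 7.05% of genes reached or fell below, and Boc at 0.653 (5.34%). In all, 8 of the 9 members, all but Smo, were lowest in that library, as were 36.1% of the 12687 genes. The photoreceptor sum was highest there, 17696 against 13119 and 13224, and so was the amacrine sum, 14806 against 12957 and 12009. The part of the cell mix in these levels was not tested.

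Mutant RGC library 1, with the lowest Shh and ganglion cell sum of the mutant RGCs, had Gli1 at 0.490 of the nearer library and Hhip at 0.766, ratios that 1.29% and 9.93% of genes reached or fell below. There Ptch1 was at 1.12 and Gli3 at 1.06 of the nearer library, and the progenitor sum was 30072 against 29916 and 29806. Of the 16 markers in that sum, 7 were lowest and 8 highest in that library, with ratios of 0.840 to 1.77. In all, 4 of the 9 members were lowest in that library, as were 44.2% of the 12687 genes. Another 2 members were highest there, as were 43.3% of the genes. That library also had the highest sums of its group for microglia, 6869 against 1933 and 1744, for endothelial cells and pericytes, 10173 against 5519 and 5741, for photoreceptors, 17574 against 11804 and 12514, and for amacrine cells, 15437 against 12891 and 13394. Horizontal cell and astrocyte sums were highest there too. The part of this cell mix in its Gli1 and Hhip levels was not tested.

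WT library 3 ran the other way. It had the lowest Shh of the WT RGCs and a ganglion cell sum of 43582 against 51356 and 52083, yet Gli1 was at 2.31 times the nearer library, Smo at 1.69, Gli2 at 1.64 and Hhip at 1.54. All 16 progenitor and Mueller glia markers and all 18 proliferation genes were highest in that library as well, with median ratios of 1.62 and 1.61, where 44.2% of all genes were highest. Low Shh thus went with low Gli1 in the libraries of both mutant groups, and with high Gli1 and high progenitor markers in WT. Over the 9 libraries the Pearson r of Gli1 with Shh was -0.47.

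**Figure D3:**
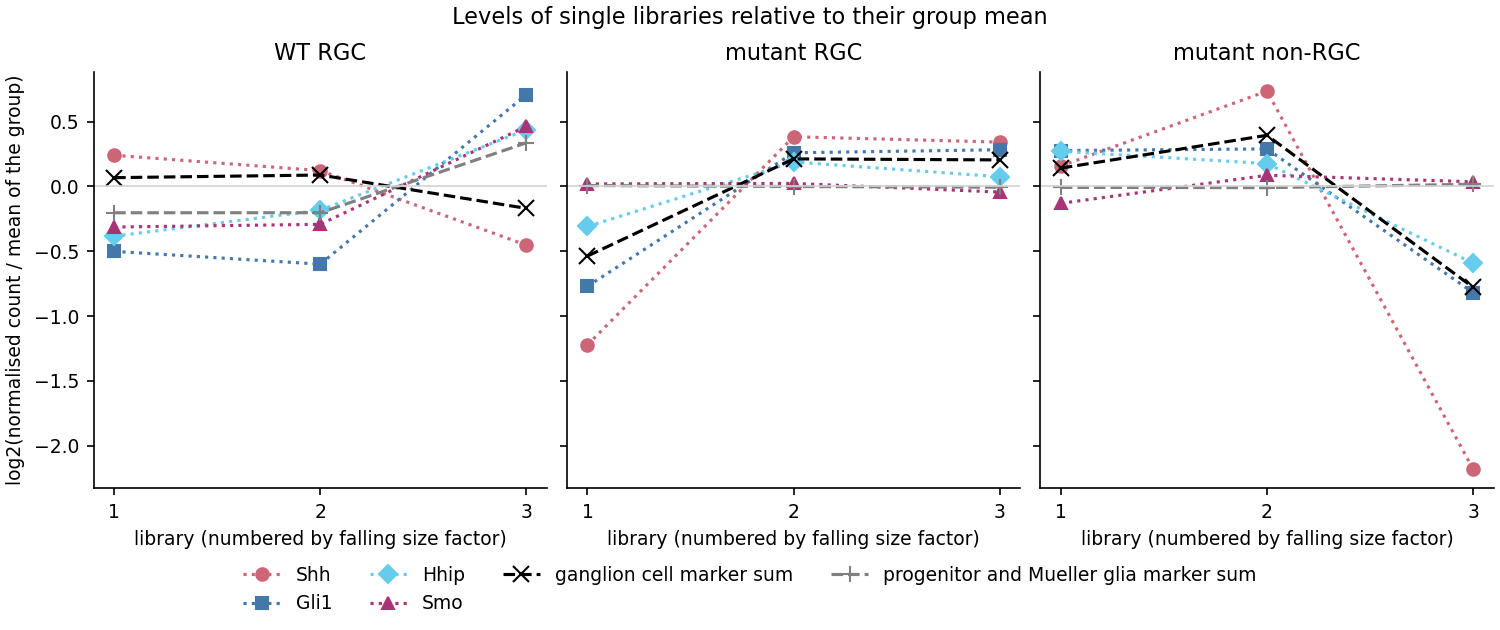
Level of single libraries relative to the mean of their group (log2 of the ratio), for Shh, Gli1, Hhip, Smo and the summed ganglion cell and progenitor markers, by library number, which is an order of size factors only. Shh, Gli1 and Hhip are low together in mutant RGC library 1 and mutant non-RGC library 3, where Smo and the progenitor sum stay near 0, and Gli1 is high in WT library 3 where Shh is low.

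Of 56 other genes listed for the pathway, 55 are in the tables and 51 were tested between genotypes, where 5 rose (Efcab7, Tulp3, Foxm1, Bmi1 and Bcl2) and 3 fell (Dzip1, Adrbk1 and Gpc5), with a median difference of 0.06. Of all genes tested there, 13.7% rose and 12.3% fell. Between fractions 52 were tested, 6 rose in non-RGC cells (Tulp3, Foxm1, Hes1, Rab34, Arrb2 and Evc) and 3 fell (Gsk3b, Prkacb and Gpr161), with a median of 0.02. Of all genes tested there, 5.07% rose and 12% fell. Bcl2, Arrb2, Evc and Gpr161 are named here because their calls were counted. Levels of these other genes given below as from 1 group mean to another come from libraries scaled within the comparison, as the log2 differences do. Tulp3 and Foxm1 were called in both comparisons, which share the mutant RGC libraries. With any of WT libraries 1 and 2 or mutant RGC libraries 2 and 3 left out, limma called none of these pathway genes between genotypes, against 5 with mutant RGC library 1 left out and 19 with WT library 3 left out. Over all genes, it called 3 to 9 in the former fits, 2284 of 15234 without mutant RGC library 1 and 6478 of 15304 without WT library 3. Between fractions it called none of them with mutant RGC library 2 or non-RGC library 1 left out, 1 with mutant RGC library 3 left out and 3 with non-RGC library 2 left out. Over all genes these fits called 595, 438, 621 and 1243 in the same order, against 2590 with all libraries.

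**Figure D4:**
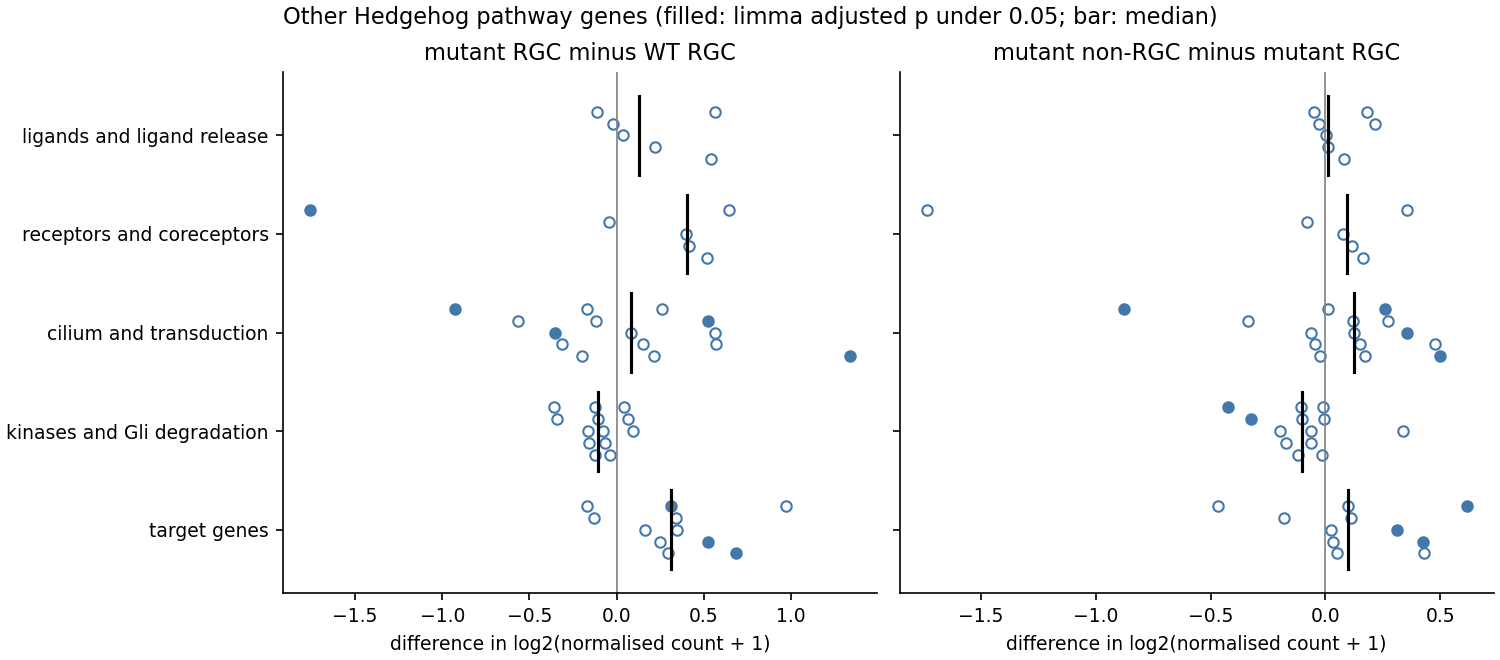
Differences in log2(normalised count + 1) of the other pathway genes, by role, for mutant RGC minus WT RGC (left) and mutant non-RGC minus mutant RGC (right). Points are genes, filled where the limma adjusted p was under 0.05, and bars are medians. The medians lie between -0.11 and 0.41 on the left and between -0.10 and 0.12 on the right.

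Of the ligand and release genes, 6 were tested between genotypes and 7 between fractions, and none passed limma's test, at an unadjusted p under 0.05 or in the authors' deposited table either. Dhh, which encodes another Hedgehog ligand, stood near the minimum for testing, with 12.2 ± 9.59 normalised counts in WT RGCs, 15.4 ± 3.52 in mutant RGCs and 16.1 ± 0.527 in mutant non-RGC cells (SD, n = 3 each). Hhat, whose product attaches palmitate to the ligand, had a genotype difference of 0.22 (SE 0.15), and Scube2, whose product helps release the ligand, 0.54 (SE 0.40). Scube1 had -0.11 (SE 0.26). The limma adjusted p of these 4 genes was 0.302 to 0.774 between genotypes.

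Of 6 receptor and coreceptor genes, Gpc5, which encodes a cell surface glypican, fell between genotypes (-1.76, SE 0.49, limma adjusted p = 0.0435), from 61.7 to 18.5 normalised counts. Among all genes tested between genotypes, 12.3% fell and 13.7% rose. The coreceptor genes Lrp2 (0.64, SE 0.27) and Gas1 (0.42, SE 0.20) and the glypican gene Gpc3 (0.52, SE 0.20) had positive differences that did not pass (limma adjusted p = 0.107, 0.150 and 0.0854). None of the 6 passed limma's test between fractions, with 1 higher and 1 lower at an unadjusted p under 0.05 and none called in the authors' deposited table. Gpc5 there had a difference of -1.74 (SE 0.61, limma adjusted p = 0.0959).

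Among 15 tested genes of the primary cilium and of transduction there, 2 rose and 2 fell between genotypes, against 13.7% and 12.3% of all genes. Efcab7, whose product anchors the Evc complex at the base of the cilium, rose from 54.2 to 139 normalised counts (1.34, SE 0.16, limma adjusted p = 0.0215). Tulp3, which encodes an adaptor that carries receptors into the cilium, rose by 0.52 (SE 0.12, limma adjusted p = 0.0308) and rose again in non-RGC cells by 0.35 (SE 0.08, limma adjusted p = 0.0231). Dzip1, which encodes a protein of the ciliary base, fell from 2098 to 1099 (-0.92, SE 0.15, limma adjusted p = 0.0238) and Adrbk1, the gene of a kinase that phosphorylates Smo, by 0.35 (SE 0.07, limma adjusted p = 0.0246). The cilium genes therefore had no common direction.

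Among 13 kinase and Gli degradation genes, none passed limma's test between genotypes, against 13.7% of all genes higher and 12.3% lower. There 3 were lower at an unadjusted p under 0.05 and the authors' deposited table calls none. Between fractions, 2 fell in non-RGC cells, against 12% of all genes. Both encode kinases that phosphorylate Gli proteins for processing into repressors. Gsk3b fell from 4928 to 3937 (-0.32, SE 0.05, limma adjusted p = 0.0106) and Prkacb, a catalytic subunit gene of protein kinase A, from 2670.3 to 1979.9 (-0.43, SE 0.08, limma adjusted p = 0.0161). Prkaca and Prkar1a, which encode other subunits of that kinase, had differences of -0.12 and -0.20 between fractions that did not pass (limma adjusted p = 0.247 and 0.0806).

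Of 11 tested target genes, 3 rose in each comparison and none fell by limma in either, nor at an unadjusted p under 0.05 or in the authors' deposited table. Of all genes, limma called 13.7% higher and 12.3% lower between genotypes, and 5.07% higher and 12% lower between fractions. Many of these target genes answer to other signals or follow the cell cycle as well. Foxm1, a transcription factor gene of dividing cells, rose between genotypes from 1296 to 2029 (0.69, SE 0.19, limma adjusted p = 0.0432) and between fractions by 0.31 (SE 0.07, limma adjusted p = 0.0231). Bmi1, which encodes a subunit of Polycomb repressive complex 1, rose between genotypes (0.31, SE 0.08, limma adjusted p = 0.0394). Hes1, a progenitor gene also driven by Notch, rose in non-RGC cells (0.42, SE 0.07, limma adjusted p = 0.0116), as did Rab34, a ciliary trafficking gene (0.62, SE 0.17, limma adjusted p = 0.0477). The summed proliferation genes, given above, were higher in the same groups.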

How the data were processed

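RNA of 9 libraries was analysed. Per the submitters' processing notes, the authors used STAR 2.3, featureCounts, DESeq and FastQC on build mm10. Per the file headers, the 2 deposited tables give mean normalised counts per condition (a signal scaled by size factors), the fold change as a ratio of the means, its log2 value, and p-values and adjusted p-values of the authors.

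Counts of single libraries were recovered here by a search for the whole read counts and size factors that give each deposited mean within 1e-09. This succeeded for 99.975% to 100% of genes above 0 in a condition. The mutant RGC counts recovered from either table were identical for 38718 genes, of which 23953 were above 0. The rest had a mean of 0 in both, so their match was fixed in advance. The method was tested on simulated data. Ank2, Kif1b, Reln, Adcy1, Map1b and Dync1h1 had no single solution in WT RGCs and were left out.

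Limma 3.58.1 (R 4.3.3) with a variance trend was fitted to log2(normalised count + 1) of the 6 libraries of a comparison, for genes with a mean of at least 10. Benjamini-Hochberg adjustment ran over all genes tested, two-sided, and genes under 0.05 were called. Since the counts were recovered from means, no count model was used beyond voom weights. Other pathway genes are named where they had 1 of the 4 lowest adjusted p values of their role in either comparison, and genes like Shh or Gli1 as the 3 highest r values among genes with a mean of at least 50, passing over predicted genes, clone names, pseudogenes and other members. Markers named singly fall outside that rule, and some genes are not reported here. The members and lists were chosen with earlier results of these data known. Alternatives covered the pseudocount, the filter, scaling, the variance trend, voom, a fit of all 9 libraries, each library left out and the authors' test. Promoters and coordinates are from RefSeq.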

Additional observations from a re-analysis of the deposited data

How the results depend on the processing

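No paired analysis was possible because the recovered libraries carry no sample numbers. Leaving out 1 library at a time moved the calls most. Between genotypes it gave 0 to 6 members (4 with all libraries), 0 to 19 other pathway genes (8) and 3 to 6478 of all genes (3971). Between fractions it gave 0 to 3 members (1), 0 to 12 other pathway genes (9) and 438 to 3325 of all genes (2590). With 1 library left out, the fraction differences of Ptch1 (-0.0054 to 0.17) and Sufu (-0.025 to 0.035), near 0 with all libraries, changed sign.

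Of the other alternatives, 174 values of single members kept direction and side of the threshold, 2 gained a call and 4 lost one. The members called between fractions were 2 with total-count scaling and 0 without a variance trend or with voom weights. The other pathway genes called between genotypes were 5 without a filter on low values and 3 without a variance trend. Between fractions they were 3 without a variance trend, 5 in a fit of all 9 libraries and 3 in the authors' deposited table. Without a variance trend, 2112 of all genes were called between genotypes and 1615 between fractions, and the authors' deposited table calls 1635 between fractions. The split of all calls into higher and lower moved with scaling, between genotypes from 2092 and 1879 to 1980 and 2294 (upper quartile) or 2398 and 1902 (total count), and between fractions from 770 and 1820 to 1030 and 1747 or 1465 and 1601. No member changed direction under these scalings. Why calls moved was not tested. Depth limits Shh in non-RGC cells, where the 3 libraries held 27, 40 and 5 reads.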
